A study of Mus musculus with 6 samples.

Results

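Respiratory chain and ATP synthase genes were examined in RNA from the pancreas of WT mice, with 3 cerulein libraries and 3 saline libraries. Cerulein, an analogue of cholecystokinin that overstimulates the enzyme-secreting acinar cells, was injected intraperitoneally 10 times, each in 200 µl at 200 µg/kg/h. Controls received intraperitoneal saline, and both groups carried the same WT genotype, with no strain, age or sex in the labels. Tissue was collected at the end of the injections, at the early stage of acute pancreatitis that the study addressed. The members are table rows with names of the Nduf, Sdh, Uqcr, Cox or Atp5 subunit families and all mitochondrially encoded rows. This gave 123 of 36333 rows. They comprised 86 nuclear rows, of which 80 are subunit genes and 6 are pseudogenes, paralogues or factors with a similar name, and 37 rows of mitochondrial DNA (mtDNA), of which 13 encode subunits, 2 ribosomal RNAs and 22 tRNAs.

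Complexes I to IV of the inner mitochondrial membrane pass electrons from NADH and succinate to oxygen and, except for complex II, pump protons, and complex V, the ATP synthase, uses the proton gradient to make ATP. Most subunits are encoded in the nucleus and imported, while a small core of complexes I, III, IV and V is transcribed inside the organelle from mtDNA as long joint transcripts that are then cut into single RNAs. Pancreatic acinar cells make and secrete large amounts of protein and depend on mitochondrial ATP for calcium clearance and secretion, and mitochondrial injury is a known feature of experimental pancreatitis.

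Total counts per library lay between 5335117 and 7610775. Of the rows tested, 3574 (28.7%) were higher in cerulein and 3373 (27.1%) lower, by edgeR's quasi-likelihood test at an adjusted p under 0.05, the threshold for every call below. Levels are given as CPM, counts brought to a common library size with edgeR's TMM factors. Acinar digestive enzyme genes took 32.3%, 35.3% and 30.8% of counts in the cerulein libraries, against 48.7%, 62.0% and 63.0% in the saline libraries. The choice of scaling therefore sets where a fold change of 0 lies: with library size alone the all-gene median log2 fold change moved to 0.56, and with upper-quartile factors to -0.20. Saline replicate 1 stood apart within its group, with the lowest enzyme share and the highest neutrophil marker sum (235 CPM, against 20.7 and 47.3 in saline replicates 2 and 3). Counts without it are given where they differ by more than 1.5 times. The defining acinar markers were present in all 6 libraries, as the labelled tissue calls for, and none was at 0. The sum of 12 acinar markers was 185115, 232214 and 182116 CPM in cerulein and 307536, 585888 and 589782 CPM in saline, and 10 of them were lower and 1 higher. Duct markers summed to 1593, 1497 and 1172 CPM in cerulein and 167, 189 and 202 CPM in saline, with 7 of 8 higher and 1 lower. Monocyte and macrophage markers summed to 577, 569 and 513 CPM in cerulein and 348, 157 and 231 CPM in saline, with 5 of 10 higher. The acinar list moved in the direction of most subunit genes described below, and the duct and the monocyte and macrophage lists in the opposite direction. The part of these lists in the subunit differences was not tested. In bulk tissue, fewer cells of a type and less RNA per cell cannot be told apart.

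Most nuclear subunit genes were lower after cerulein. Of the 80, 71 passed the filter on low counts, and 52 of these were lower and 1 higher, beside the 27.1% and 28.7% of all genes tested; 18 were not called. Their median log2 fold change was -0.97, with a range of -2.37 to 0.88, against a median of all genes close to 0. In 50 of the 71 the 3 cerulein libraries and the 3 saline libraries did not overlap, a share of 70.4%, against 63.0% of all genes tested. Every one of the 13 mtDNA subunit genes had a fold change below 0, and 12 were lower, with a median of -0.83. The 2 mitochondrial rRNA rows went the other way, with a median of 3.27. The counts depended on scaling. With library size alone 25 nuclear subunit genes were lower and 8 higher, and 2 mtDNA subunit genes were lower, beside 11.6% of all genes lower and 41.6% higher under that scaling. The nuclear median minus the all-gene median of the same scaling was -0.97 with TMM and with upper-quartile factors and -0.95 with library size alone. The mtDNA median relative to all genes was -0.83, -0.83 and -0.78 under those scalings. A change of scaling moves all genes by nearly the same amount, so these relative medians stay nearly equal by construction. They cannot show whether the fall depends on scaling.

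**Figure D1:**
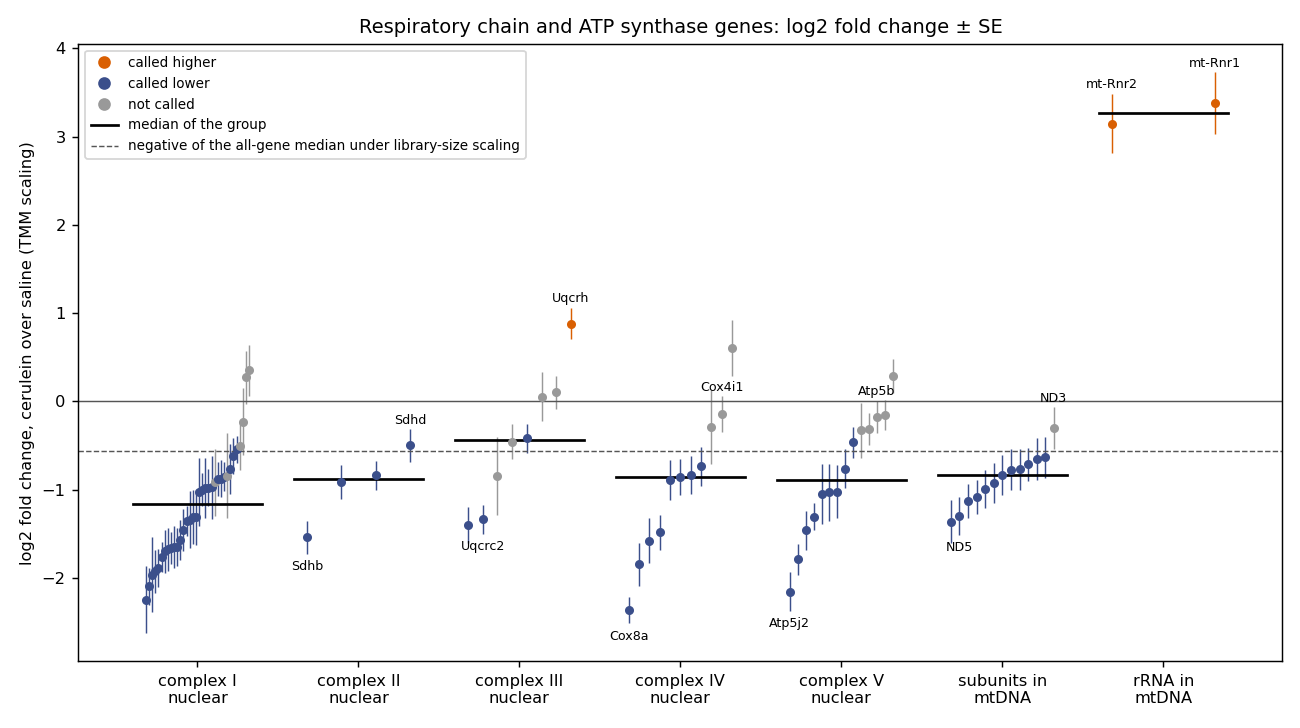
Log2 fold change, cerulein over saline with TMM scaling (y axis), of each tested subunit and mitochondrial rRNA gene (points, bars ± SE), grouped by complex and genome (x axis), with group medians as thick lines. The medians lie below 0 for every group of subunit genes, from -1.17 in complex I to -0.44 in complex III, and the 2 rRNA genes lie above 3; the dashed line at -0.56 marks the negative of the all-gene median under library-size scaling.

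Promoters are shown for 5 nuclear members that mark the range of change, since the subunit genes share regulators described further below. The sequences are from RefSeq (GRCm38.p6), cover 250 bases before to 50 bases after the annotated start and read 5′ to 3′ on the gene's strand. Capitals mark exact matches, on either strand, to GCGCNTGCG, a core of the binding site of NRF1, or CCGGAAG, a core shared by GABP and other ETS factors, and no capital runs overlap. Ndufs3 (chr2:90904672-90904971, minus strand) and Cox8a (chr19:7217567-7217866, minus strand) were among the most strongly lowered and each hold 2 ETS matches. Ndufa6 (chr15:82354242-82354541, minus strand) was lower and holds 1 NRF1 match. Uqcrh (chr4:116075021-116075320, minus strand), the nuclear subunit gene that rose, holds 1 ETS match, and Atp5b (chr10:128083057-128083356, plus strand), close to no change, holds neither.
Ndufs3: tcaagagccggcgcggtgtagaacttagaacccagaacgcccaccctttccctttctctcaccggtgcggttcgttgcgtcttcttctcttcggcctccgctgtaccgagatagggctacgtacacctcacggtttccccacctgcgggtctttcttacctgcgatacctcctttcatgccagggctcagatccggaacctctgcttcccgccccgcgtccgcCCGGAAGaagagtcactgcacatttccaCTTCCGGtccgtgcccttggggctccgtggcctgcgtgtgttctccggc
Cox8a: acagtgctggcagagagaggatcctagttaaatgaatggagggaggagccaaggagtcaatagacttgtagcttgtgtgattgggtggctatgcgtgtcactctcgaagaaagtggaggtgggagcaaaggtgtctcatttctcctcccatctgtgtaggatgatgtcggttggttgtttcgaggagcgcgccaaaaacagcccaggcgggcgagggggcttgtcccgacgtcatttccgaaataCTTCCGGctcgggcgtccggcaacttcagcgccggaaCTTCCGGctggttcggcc
Ndufa6: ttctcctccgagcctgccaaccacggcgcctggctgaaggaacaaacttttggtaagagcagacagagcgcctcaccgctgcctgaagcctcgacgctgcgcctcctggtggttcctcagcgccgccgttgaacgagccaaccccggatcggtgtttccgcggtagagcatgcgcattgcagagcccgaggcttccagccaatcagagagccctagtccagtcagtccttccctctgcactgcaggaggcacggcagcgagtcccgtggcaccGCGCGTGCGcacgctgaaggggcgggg
Uqcrh: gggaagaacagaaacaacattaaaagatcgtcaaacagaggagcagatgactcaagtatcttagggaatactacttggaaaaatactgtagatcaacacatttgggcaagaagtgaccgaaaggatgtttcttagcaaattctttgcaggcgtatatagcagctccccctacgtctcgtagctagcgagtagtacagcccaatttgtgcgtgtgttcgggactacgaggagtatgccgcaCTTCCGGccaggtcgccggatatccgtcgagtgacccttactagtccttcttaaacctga
Atp5b: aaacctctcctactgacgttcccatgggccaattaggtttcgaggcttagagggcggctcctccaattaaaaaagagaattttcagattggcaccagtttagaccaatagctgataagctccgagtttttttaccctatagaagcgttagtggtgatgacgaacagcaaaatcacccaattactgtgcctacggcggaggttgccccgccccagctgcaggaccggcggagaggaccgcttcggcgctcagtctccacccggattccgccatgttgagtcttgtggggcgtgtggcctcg

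RefSeq promoters of the same length were found for 66 of the 80 subunit genes (71 promoters) and were set beside all 32851 promoters of the table. NRF1 matches were in 33.8% of the subunit promoters and 6.31% of all promoters. The ETS core was in 22.5% and 8.86%, the YY1 sequence AAGATGGCG in 9.86% and 1.40%, and the estrogen-related receptor (ERR) sequence CAAGGTCA in 5.63% and 1.56%. At least 1 of these 4 sequences was in 54.9% of subunit promoters and 16.3% of all promoters. Among subunit genes, NRF1 matches were in 38.0% of the 50 promoters of genes that fell and in 28.6% of the 14 promoters of genes that were not called. The ETS core was in 20.0% of the promoters of genes that fell and in 28.6% of those not called. These shares describe letters in the window only.

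Complex I, the NADH dehydrogenase, carried the largest number of lowered genes. Of its 35 nuclear members 34 were tested, and 28 were lower and none higher, beside 27.1% and 28.7% of all genes tested. Their median log2 fold change was -1.17. Ndufab1, a further complex I subunit, has a name outside the pattern used and is counted with the carriers below. Scaling by library size alone gave 14 lower and 2 higher. Ndufc1, at under 3 CPM in every library, did not pass the filter. Among the 7 core genes that carry the flavin, the iron-sulfur clusters and the quinone site, 6 were lower, and among 27 tested accessory genes 22 were lower.

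Ndufs3, a core subunit next to the quinone site, had 4.97, 3.86 and 5.68 CPM in the cerulein libraries and 19.9, 20.3 and 22.1 CPM in the saline libraries. The groups were far apart, and each was tight: the means were 4.84 ± 0.918 and 20.8 ± 1.18 CPM (SD, n = 3 each). The log2 fold change was -2.10 ± 0.21 (SE, edgeR adjusted p = 3.31e-06), a 4.28-fold lower level. Ndufv2, an iron-sulfur subunit at the NADH-oxidizing end, had 6.51, 6.90 and 6.95 CPM in cerulein and 23.0, 20.9 and 20.3 CPM in saline. All 3 cerulein values were below all saline values, with a log2 fold change of -1.66 ± 0.19 (SE, edgeR adjusted p = 7.46e-06). Ndufa6, an accessory subunit of the LYR protein family, had 16.7, 20.4 and 16.0 CPM in cerulein and 52.0, 61.7 and 67.4 CPM in saline. It fell by 1.76 on the log2 scale (SE 0.17), and its libraries did not overlap. Ndufb5, an accessory subunit of the membrane arm, had 4.73, 6.32 and 5.30 CPM in cerulein and 17.1, 21.8 and 22.1 CPM in saline, and fell by 1.89 (SE 0.22).

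Not every complex I gene followed. Ndufv1 and Ndufb8 had the fold changes nearest 0 in the complex once genes averaging under 4 in log2 CPM were set aside. Ndufv1, which binds NADH and the flavin, fell by 0.54 (SE 0.16), with 29.2, 35.6 and 29.7 CPM in cerulein and 43.3, 50.9 and 43.7 CPM in saline. With library size alone its log2 fold change was 0.03, so its direction rests on the scaling. Ndufb8, a membrane-arm accessory subunit, fell by 0.62 (SE 0.21), with 15.3, 17.2 and 12.5 CPM in cerulein and 17.6, 24.8 and 27.5 CPM in saline. Both genes lost less than most of the complex, although their groups still did not overlap. Less abundant accessory subunits, named after their values were seen, lay nearer 0: Ndufa1 (-0.23 ± 0.38), Ndufa2 (0.35 ± 0.29) and Ndufb6 (0.28 ± 0.30, log2 fold change ± SE) were not called.

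Complex II, succinate dehydrogenase, links the citric acid cycle to the chain and has 4 genes, all nuclear. All 4 were lower with TMM factors, beside 27.1% of all genes tested, and 1 of 4 with library size alone, beside 11.6%. Sdhb, the iron-sulfur subunit, had 19.2, 18.5 and 18.6 CPM in cerulein and 47.5, 46.2 and 70.4 CPM in saline, and fell by 1.54 (SE 0.19, edgeR adjusted p = 1.49e-05). The cerulein libraries were nearly identical, and saline replicate 3 was the highest. Sdha, the flavoprotein that oxidizes succinate, had 46.3, 40.7 and 48.1 CPM in cerulein and 89.7, 64.6 and 86.9 CPM in saline (log2 fold change -0.84 ± 0.16 SE). The membrane anchor Sdhc had 17.3, 28.3 and 22.2 CPM in cerulein and 39.8, 41.2 and 46.8 CPM in saline (-0.91 ± 0.19 SE). In both genes the groups were separate. The other anchor, Sdhd, had 32.4, 46.0 and 34.2 CPM in cerulein and 44.2, 61.9 and 53.7 CPM in saline. Its groups overlapped, as cerulein replicate 2 exceeded saline replicate 1, and its log2 fold change of -0.50 ± 0.18 SE (edgeR adjusted p = 0.0323) was 0.08 with library size alone.

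Complex III passes electrons from ubiquinol to cytochrome c. Of 8 tested nuclear members 3 were lower (37.5%), 1 was higher (12.5%) and 4 were not called, with a median of -0.44. The lower share was near the 27.1% of all genes tested, and the higher share was below their 28.7%. Without saline replicate 1, 5 were lower, and with DESeq2 2 were lower. Cyc1, a further complex III subunit, has a name outside the pattern used and is counted with the carriers below. Uqcrc2, a core protein of the matrix side, had 18.0, 20.1 and 18.2 CPM in cerulein and 44.4, 43.7 and 54.5 CPM in saline, and fell by 1.34 (SE 0.16, edgeR adjusted p = 1.52e-05). Uqcr10, one of the small subunits, had 8.05, 10.1 and 7.83 CPM in cerulein and 19.5, 27.3 and 22.4 CPM in saline, and fell by 1.40 (SE 0.20). Both fell with no overlap between groups. Uqcrc1, the other core protein, had 54.0, 64.5 and 52.9 CPM in cerulein and 63.8, 77.3 and 89.0 CPM in saline; cerulein replicate 2 lay above saline replicate 1. Its log2 fold change was -0.42 ± 0.16 SE (edgeR adjusted p = 0.0425) and 0.17 with library size alone.

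Uqcrh, the hinge protein that contacts cytochrome c1, was the only nuclear subunit gene called higher with TMM factors. It had 58.2, 74.1 and 53.9 CPM in cerulein and 27.8, 34.7 and 39.3 CPM in saline, with every cerulein library above every saline library. The means were 62.1 ± 10.6 and 33.9 ± 5.82 CPM (SD, n = 3 each), and the log2 fold change was 0.88 ± 0.18 (SE, edgeR adjusted p = 9.73e-04). It stayed above 0 and called under every scaling, test, filter and left-out library run, between 0.69 and 1.47. A pseudogene row, Uqcrh-ps1, was lower at -0.73 ± 0.27 SE, and how reads shared by such copies were assigned is not given in the sources used here, so both values are uncertain to that extent. Uqcrq, a small subunit near the quinone site, overlapped between groups with 64.3, 83.1 and 62.6 CPM in cerulein and 49.3, 69.6 and 77.6 CPM in saline (0.10 ± 0.19 SE, not called). Uqcrb, a less abundant small subunit named after its values were seen, was not called either (0.055 ± 0.28 SE).

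Complex IV, cytochrome c oxidase, had 18 nuclear genes in the table, counting Ndufa4, which is named after complex I but was placed here as a complex IV subunit. Of 11 tested, 8 were lower and none higher, beside 27.1% and 28.7% of all genes tested, with a median of -0.86. Scaling by library size alone gave 4 lower and 2 higher. Cox8a, one of the smallest subunits, had the largest fall of all members with TMM factors and edgeR; in limma-voom, and without saline replicate 2 or cerulein replicate 1, a complex I gene fell further (-2.38, -2.41 and -2.84). It had 18.0, 18.3 and 16.7 CPM in cerulein and 85.2, 88.1 and 100.02 CPM in saline, with means of 17.6 ± 0.849 and 91.1 ± 7.86 CPM (SD, n = 3 each). The log2 fold change of -2.37 ± 0.15 (SE, edgeR adjusted p = 6.02e-08) is a 5.15-fold lower level, and with library size alone it was -1.79. Cox8a fell in every alternative run.

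Cox7b, a small membrane subunit, had 7.34, 11.8 and 7.70 CPM in cerulein and 26.7, 28.6 and 42.4 CPM in saline, and fell by 1.85 (SE 0.24). Ndufa4 had 6.86, 6.67 and 6.19 CPM in cerulein and 16.5, 18.5 and 20.6 CPM in saline, and fell by 1.48 (SE 0.20). Cox7a2, the widely expressed isoform of subunit VIIa, had 4.62, 8.42 and 6.82 CPM in cerulein and 15.3, 20.3 and 24.4 CPM in saline, and fell by 1.58 (SE 0.26). In all 3 genes the cerulein libraries lay below every saline library. Cox5a, a matrix-side subunit, fell by 0.74 (SE 0.22), with 13.6, 22.8 and 14.0 CPM in cerulein and 24.6, 30.9 and 29.1 CPM in saline. Cox4i1, the largest nuclear subunit, differed by less than the spread between libraries. It had 46.7, 66.9 and 53.4 CPM in cerulein and 44.0, 68.7 and 72.8 CPM in saline (-0.14 ± 0.20 SE, edgeR adjusted p = 0.578), and with library size alone it was called higher at 0.46. Cox5b (-0.29 ± 0.42 SE) and Cox7c (0.60 ± 0.32 SE), named after their values were seen, were not called.

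The muscle and tissue-restricted isoforms of complex IV were at the edge of detection. Cox4i2, Cox6a2, Cox6b2 and Cox7a1 had at most 0.901 CPM in any library, and Cox8b and Cox8c had no counts. Ratios to their widely expressed partners were therefore not compared. The partners Cox6a1 (-0.89 ± 0.23 SE) and Cox6b1 (-0.86 ± 0.20 SE) both fell.

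**Figure D2:**
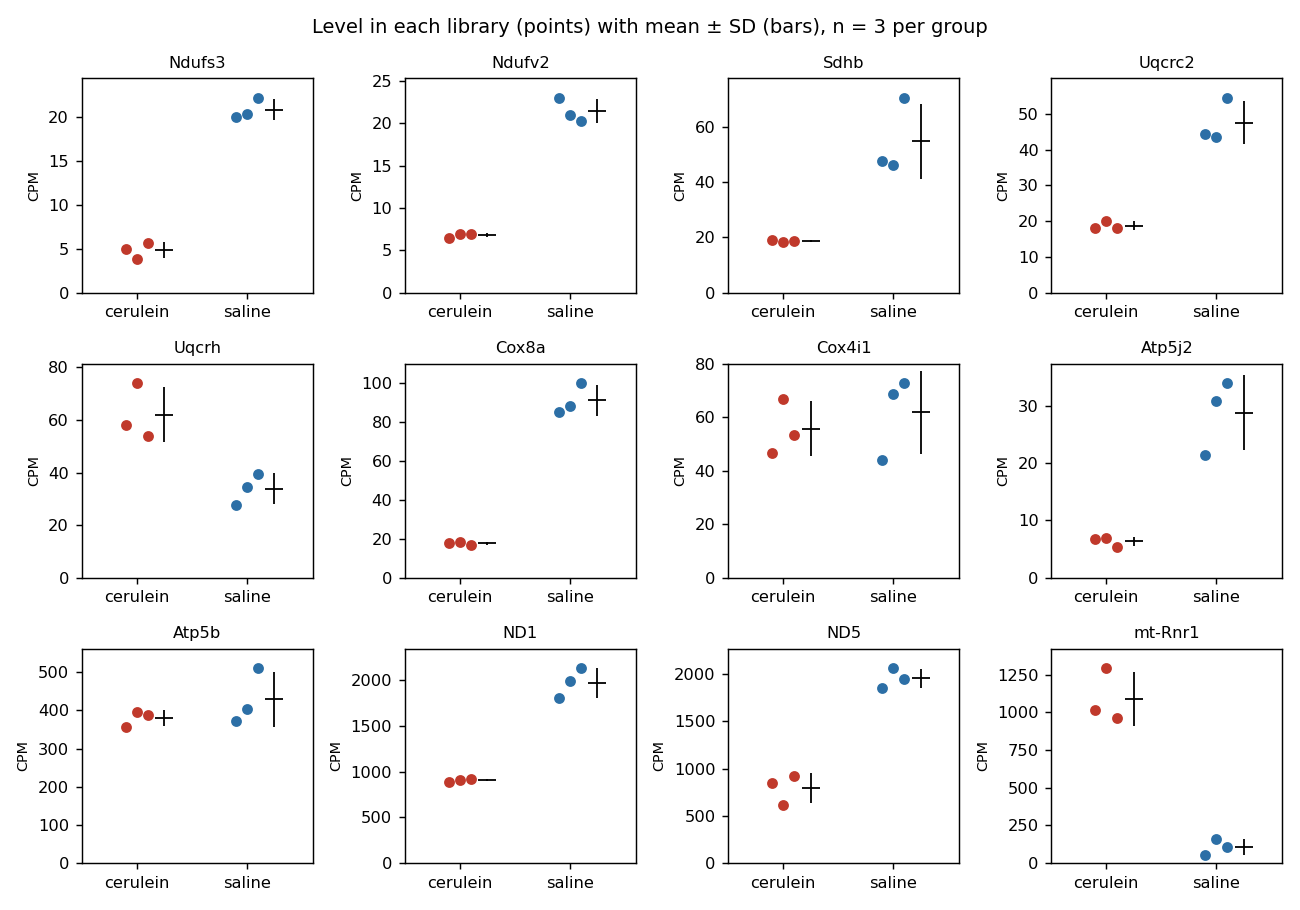
CPM (y axis, from 0) in each library for 12 members, cerulein at the left and saline at the right of each panel, with mean ± SD as bars (n = 3 each). Ndufs3, Ndufv2, Sdhb, Uqcrc2, Cox8a, Atp5j2, ND1 and ND5 lie lower in every cerulein library, Uqcrh and mt-Rnr1 lie higher, and Cox4i1 and Atp5b overlap between groups.

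Complex V, the ATP synthase, held both strongly lowered genes and genes close to no change. Of 14 tested nuclear genes 9 were lower and none higher, beside 27.1% and 28.7% of all genes tested, with a median of -0.89. Without cerulein replicate 3, 5 were lower, and with library size alone 4 were lower and 2 higher. In the catalytic F1 head and its central stalk, 1 of 5 genes was lower, and of the 9 other genes 8 were. Upper-quartile factors, or leaving out saline replicate 1, made the F1 count 2 of the 5. Outside F1, Atp5f1, Atp5g1, Atp5h and Atp5l lost their calls without cerulein replicate 3. Library size alone lost these and Atp5g2, and DESeq2 lost Atp5f1 and Atp5l. The difference between the parts was not tested. Atp5b, the catalytic beta subunit, was the most abundant nuclear member per exon length in both groups, at 198 CPM per kb in cerulein and 224 CPM per kb in saline. It had 356, 395 and 388 CPM in cerulein and 372, 403 and 511 CPM in saline (log2 fold change -0.18 ± 0.18 SE, edgeR adjusted p = 0.435). Atp5a1, the alpha subunit, had 203, 232 and 206 CPM in cerulein and 209, 233 and 274 CPM in saline (-0.16 ± 0.17 SE, edgeR adjusted p = 0.454). The groups overlapped for both, and with library size alone Atp5b was at 0.42, not called, and Atp5a1 was called higher at 0.43. The central-stalk genes Atp5d (-0.31 ± 0.18 SE) and Atp5e (-0.33 ± 0.31 SE), named after their values were seen, were also not called.

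Atp5c1, the gamma subunit that turns inside the head, differed from its F1 partners in being called lower. It had 25.8, 30.2 and 27.7 CPM in cerulein and 60.5, 68.5 and 78.4 CPM in saline (-1.31 ± 0.16 SE, edgeR adjusted p = 1.34e-05), with no overlap. The difference between Atp5c1 and the other F1 genes was not itself tested. Atp5j, Atp5j2 and Atp5o of the stator stalk and the membrane part fell by more than Atp5c1, and the other 6 tested genes outside the F1 part had log2 fold changes between -1.05 and 0.29. Atp5j, coupling factor 6 of the stator, had 17.2, 17.7 and 15.5 CPM in cerulein and 47.9, 59.5 and 67.6 CPM in saline, and fell by 1.79 (SE 0.17, edgeR adjusted p = 2.01e-06). Atp5j2, subunit f of the membrane part, had 6.75, 6.90 and 5.43 CPM in cerulein and 21.4, 30.9 and 33.9 CPM in saline, and fell by 2.16 (SE 0.22, edgeR adjusted p = 3.40e-06). Atp5o, which joins the stator to the head, had 5.44, 7.25 and 5.68 CPM in cerulein and 15.2, 15.8 and 20.1 CPM in saline, and fell by 1.46 (SE 0.22). These 3 genes were separate between groups in every library.

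The 3 genes of subunit c, which forms the rotor ring, encode the same mature protein with different import sequences. Atp5g1 had 2.84, 5.15 and 3.03 CPM in cerulein and 5.15, 9.24 and 8.999 CPM in saline, and fell by 1.05 (SE 0.34); cerulein replicate 2 and saline replicate 1 were level. Atp5g2 had 6.86, 6.20 and 7.58 CPM in cerulein and 12.1, 10.8 and 12.1 CPM in saline, and fell by 0.76 (SE 0.22). Atp5g3 did not fall, with 35.7, 55.0 and 38.8 CPM in cerulein and 29.4, 39.6 and 37.8 CPM in saline (0.29 ± 0.19 SE, not called). Atp5g3 thereby took 78.6%, 82.9% and 78.5% of subunit c counts in cerulein, against 63.1%, 66.4% and 64.2% in saline. This share, which needs no scaling between libraries, was higher in each cerulein library (mean 80.0% ± 2.49 in cerulein and 64.6% ± 1.70 in saline, SD, n = 3 each; two-sided exact permutation p = 0.1, the smallest that 3 against 3 allows). The log2 ratio of Atp5g3 to Atp5g1 was higher by 1.35 and that of Atp5g3 to Atp5g2 by 1.03 (exact permutation p = 0.1 each), while that of Atp5g2 to Atp5g1 differed by 0.33 (exact permutation p = 0.5). Reads common to these similar genes could be assigned to any of them, which limits the ratios.

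Ratios within a library show how the complexes shifted against each other without any scaling between libraries. Nuclear complex I took a smaller part of nuclear subunit counts after cerulein, by -0.53 in log2, and so did complexes II (-0.26) and IV (-0.41). Complexes III (0.38) and V (0.29) took a larger part. In each of these 5 ratios the cerulein and saline libraries did not overlap (exact permutation p = 0.1 each, the smallest possible). Abundant genes weigh most in these sums, Atp5b and Atp5a1 in complex V above all. When each gene counted equally, as the mean of log2 CPM, the differences were -0.18 for complex I, 0.53 for complex III and 0.12 for complex V (exact permutation p = 0.1 each). Those for complexes II (-0.01, exact permutation p = 0.9) and IV (0.02, exact permutation p = 0.7) were smaller than the spread.

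As a share of all counts the nuclear subunits together did not separate the groups. They took 0.208%, 0.220% and 0.207% of counts in cerulein and 0.239%, 0.194% and 0.225% in saline, and the groups overlapped (exact permutation p = 0.6). Outside the digestive enzyme genes they took 0.307%, 0.340% and 0.299% in cerulein and 0.465%, 0.510% and 0.608% in saline, with no overlap (exact permutation p = 0.1). The enzyme genes left out took a larger part of the saline counts. Any set of genes with an equal share of all counts would therefore have a lower share in cerulein outside them. The mtDNA subunits took 2.39%, 2.16% and 2.48% of counts in cerulein and 2.80%, 2.68% and 2.68% in saline, with every cerulein library below every saline library (exact permutation p = 0.1). The log2 ratio of mtDNA to nuclear subunit counts was 3.52, 3.30 and 3.58 in cerulein and 3.55, 3.79 and 3.58 in saline. The groups overlapped in this ratio (difference -0.17, exact permutation p = 0.3), and with the mean of log2 CPM the difference was 0.06 (exact permutation p = 0.8).

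**Figure D3:**
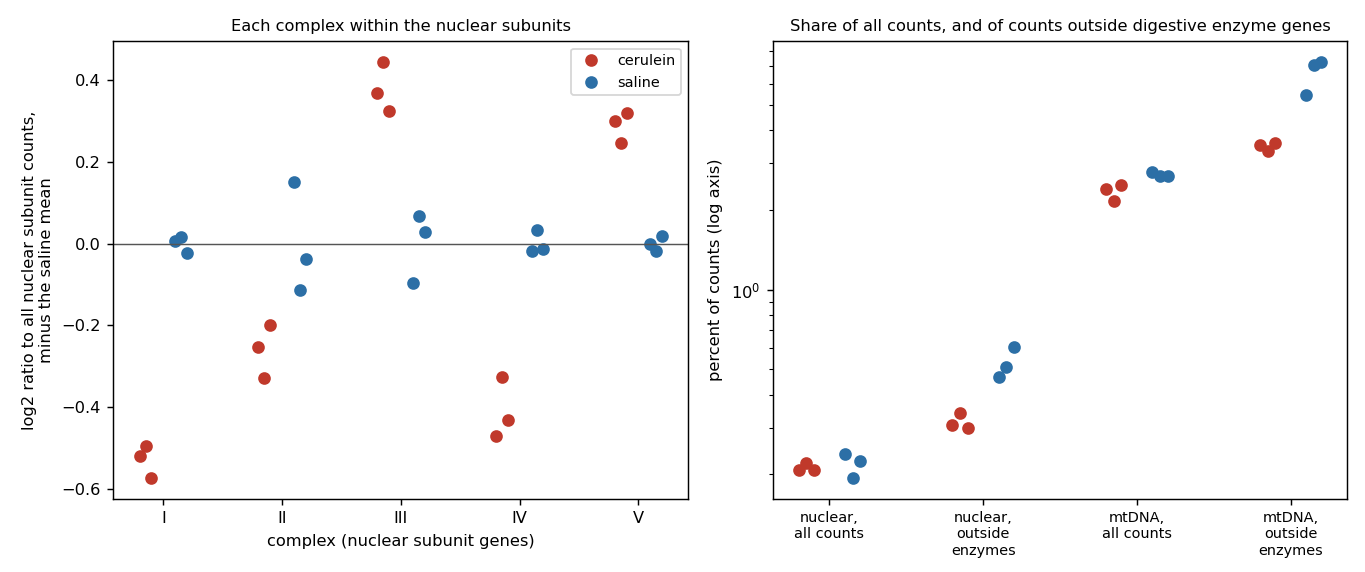
Left, log2 ratio of each complex's nuclear subunit counts to all nuclear subunit counts in each library, minus the saline mean (y axis), by complex (x axis); right, percent of counts in nuclear and mtDNA subunit genes (log y axis), over all counts and over counts outside digestive enzyme genes. Cerulein libraries (red) lie below saline libraries (blue) for complexes I, II and IV and above them for III and V, and the nuclear share of all counts is the one measure in which the groups overlap.

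All mtDNA subunit genes except ND3 were lower. ND1, a membrane core subunit of complex I, had 889.6, 908 and 914 CPM in cerulein and 1805, 1985 and 2131 CPM in saline, with means of 904 ± 12.7 and 1974 ± 164 CPM (SD, n = 3 each). Its log2 fold change was -1.13 ± 0.19 (SE, edgeR adjusted p = 2.49e-04). ND5, a proton-pumping subunit, had 847, 616 and 919 CPM in cerulein and 1852, 2063 and 1946 CPM in saline (-1.30 ± 0.21 SE, edgeR adjusted p = 1.84e-04). In both genes the highest cerulein library was well below the lowest saline library. With library size alone they were the only 2 mtDNA subunit genes still called lower (-0.54 and -0.70). Under that scaling 12 of the 13 mtDNA subunit genes had a log2 fold change below 0, the lowest at -0.78.

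The other complex I genes of mtDNA differed in size of change. ND4L fell by 1.36 (SE 0.25), with 191, 113 and 242 CPM in cerulein and 505, 476 and 424 CPM in saline. ND4 fell by 0.99 (SE 0.22), with 1365, 1268 and 1643 CPM in cerulein and 2344, 3191 and 2958 CPM in saline. These 2 genes overlap at their ends, as their joint transcript is not cut between them. ND6, the subunit gene on the opposite strand from the rest, fell by 0.92 (SE 0.23), with 385, 457 and 405 CPM in cerulein and 528, 931 and 902 CPM in saline. ND2 fell by 0.71 (SE 0.19), with 919, 886 and 978 CPM in cerulein and 1342, 1584 and 1636 CPM in saline. ND3 had 175, 244 and 194 CPM in cerulein and 162, 315 and 279 CPM in saline. Its groups overlapped because saline replicate 1 was the lowest of the 6 libraries, and the log2 fold change of -0.30 ± 0.24 SE was not called; without saline replicate 1 it was called lower.

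COX1, COX2 and COX3, the catalytic core of complex IV, were among the most abundant members per exon length. COX1 had 5240, 5547 and 5507 CPM in cerulein and 7626, 10089 and 10184 CPM in saline, and fell by 0.78 (SE 0.23). COX2 had 2104, 2454 and 2161 CPM in cerulein and 2587, 3899 and 3928 CPM in saline, and fell by 0.63 (SE 0.23). COX3 had 1966, 2316 and 2003 CPM in cerulein and 2348, 3816 and 3706 CPM in saline, and fell by 0.65 (SE 0.24). In these genes, as in ATP6 and CYTB, the saline library nearest to cerulein was replicate 1. ATP6, the proton channel of complex V, fell by 0.77 (SE 0.23), with 2076, 2282 and 2275 CPM in cerulein and 2819, 4207 and 4284 CPM in saline. ATP8, its small neighbour, fell by 1.08 (SE 0.19), with 299, 248 and 363 CPM in cerulein and 606, 697 and 624 CPM in saline. CYTB, cytochrome b of complex III, fell by 0.83 (SE 0.23), with 1949, 1899 and 2127 CPM in cerulein and 2713, 4096 and 3814 CPM in saline. Within a library the complex I genes of mtDNA lost ground against the other mtDNA subunits, with a log2 ratio lower by -0.28 after cerulein (exact permutation p = 0.1).

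**Figure D4:**
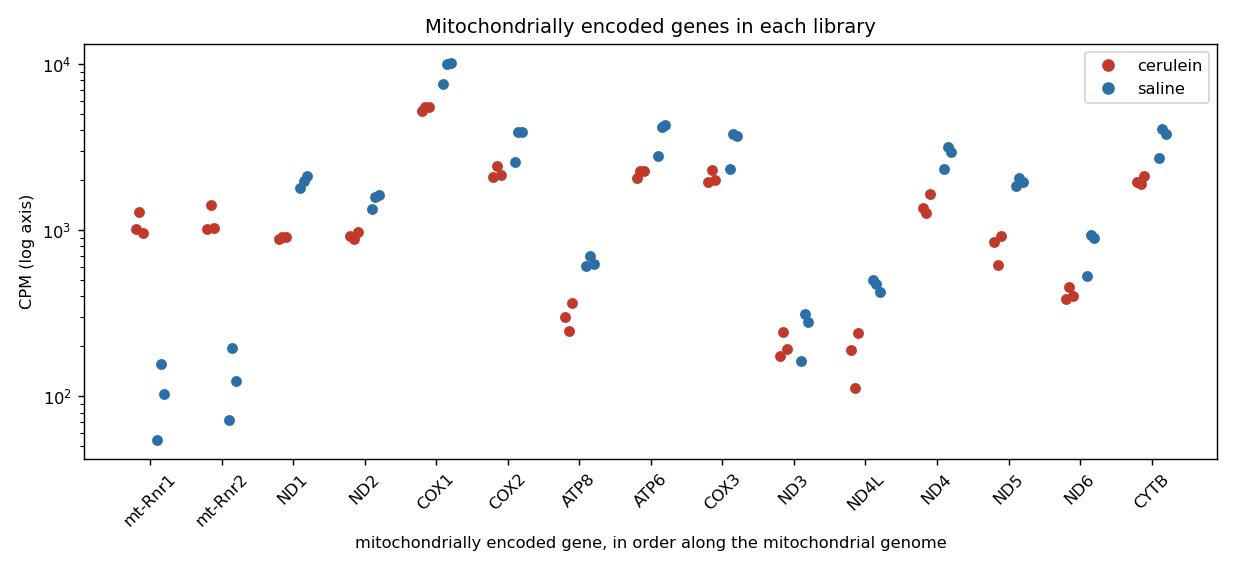
CPM (log y axis) in each library of the 15 tested mtDNA genes, in genome order along the x axis, with cerulein in red at the left and saline in blue at the right of each gene. The rRNA genes mt-Rnr1 and mt-Rnr2 lie higher in every cerulein library, and every subunit gene except ND3 lies lower in all cerulein libraries.

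The mitochondrial rRNA rows rose while the subunit rows of the same genome fell. The row mt-Rnr1, the RNA of the small mitochondrial ribosomal subunit, had 1017, 1294 and 962 CPM in cerulein and 54.9, 157 and 103 CPM in saline (log2 fold change 3.38 ± 0.35 SE, edgeR adjusted p = 1.75e-05). mt-Rnr2, that of the large subunit, had 1021, 1415 and 1027 CPM in cerulein and 72.6, 195 and 124 CPM in saline (3.15 ± 0.34 SE, edgeR adjusted p = 1.80e-05). Both were higher under every alternative run. Per 100 mtDNA subunit counts there were 11.1, 14.1 and 10.1 rRNA counts in cerulein and 0.468, 0.942 and 0.617 in saline, a ratio that needs no scaling between libraries (exact permutation p = 0.1). The library kit selects RNA by its poly(A) tail, and mitochondrial rRNAs carry only short tails. Other RNAs with no long tail were examined after these values were seen. Rmrp rose at 4.73 ± 0.82 SE, with only 2, 1 and 0 counts in saline and 75, 49 and 14 in cerulein. Rpph1 rose at 2.53 ± 0.69 SE, with 9.47, 10.1 and 3.28 CPM in cerulein and 0.677, 3.15 and 0.257 CPM in saline. A further 66 histone cluster rows were taken by name, without a check of which of them lack a tail. Their summed level was 387, 395 and 352 CPM in cerulein and 51.5, 126 and 109.8 CPM in saline, and the sum was not tested. Rn7sk was not called at 0.45 ± 0.38 SE (edgeR adjusted p = 0.336). The part of RNA selection in the rRNA difference was not tested. The 22 tRNA rows held 1 count in all and give no measurement.

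The assembly factors that build the complexes are not subunits themselves, and their counts stand beside the same 27.1% lower and 28.7% higher of all genes. Of 11 tested complex I assembly factors, 5 were lower and none higher, with a median of -0.51. The lower count was 3 when saline replicate 3, or replicate 1 or 3 of cerulein, was left out, and 8 with upper-quartile factors. Aifm1, a flavoprotein needed for import of complex I subunits, fell by 1.94 (SE 0.31), Ndufaf2, a late assembly chaperone, by 1.64 (SE 0.46) and Tmem186, of the intermediate membrane assembly complex, by 1.08 (SE 0.26). For complexes II and III, 5 of 9 were lower and 2 higher, and 1 was higher whichever library was left out. Lyrm7, which delivers the Rieske protein, fell by 2.89 (SE 0.53), Sdhaf1, which helps mature Sdhb, by 1.88 (SE 0.25) and Uqcc3, needed for cytochrome b assembly, by 1.45 (SE 0.30). For complex IV, 5 of 19 were lower, a share of 26.3% that was near that of all genes, and 2 were higher. The lower genes included Cox17, the copper chaperone (-1.33 ± 0.20 SE), Lrpprc, which stabilizes mtDNA-encoded mRNAs (-1.03 ± 0.21 SE), and Cox15, of heme A synthesis (-1.02 ± 0.22 SE). Leaving out saline replicate 1 or cerulein replicate 1 left 1 higher, leaving out any other library left 0, and upper-quartile factors gave 10 lower and 0 higher. For complex V, 1 of 3 genes (33.3%) was lower. Atpaf2, a chaperone of the alpha subunit, fell by 1.14 (SE 0.24), while Atpaf1 (-0.36 ± 0.28 SE) and Tmem70 (-0.07 ± 0.20 SE) were not called. With library size alone, 1, 3, 1 and 0 of these 4 lists' genes, in the order given, were lower and 2, 2, 3 and 1 higher. Under that scaling 11.6% of all genes tested were lower and 41.6% higher.

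Among 23 electron carriers and exchange proteins 10 were lower and 2 higher, beside 27.1% and 28.7% of all genes tested. The list includes the subunit genes outside the name pattern, Cyc1 of complex III and Ndufab1 of complex I (-1.04 ± 0.32 SE, lower). Etfdh, which passes electrons from fatty acid oxidation into the ubiquinone pool, had the largest fall of the list. It had 10.1, 8.07 and 10.99 CPM in cerulein and 86.0, 93.0 and 86.6 CPM in saline (-3.19 ± 0.17 SE, edgeR adjusted p = 1.51e-08), and the groups lay far apart. Its partner Etfb fell by 2.02 (SE 0.21), and Coq9, of ubiquinone synthesis, by 2.17 (SE 0.19). Cycs, cytochrome c itself, rose, with 36.1, 45.9 and 39.1 CPM in cerulein and 16.9, 20.3 and 17.7 CPM in saline (1.14 ± 0.17 SE, edgeR adjusted p = 8.26e-05), and so did Vdac3, an outer membrane channel (1.65 ± 0.20 SE). Its paralogue Vdac2 fell (-0.66 ± 0.19 SE), and Vdac1 was not called (-0.04 ± 0.16 SE). Cyc1, cytochrome c1 of complex III, was not called (-0.05 ± 0.16 SE), nor were the phosphate carrier Slc25a3 (0.09 ± 0.17 SE) and the ADP/ATP carriers Slc25a4 (0.38 ± 0.18 SE) and Slc25a5 (-0.25 ± 0.18 SE). Atpif1, the inhibitor of ATP synthase, fell by 1.33 (SE 0.22). Ndufab1, Cycs, the Vdac genes, Cyc1, the Slc25a genes and Atpif1 were named after their values were seen. With library size alone 5 genes of this list were lower (21.7%) and 7 higher (30.4%), beside 11.6% and 41.6% of all genes under that scaling.

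The nuclear regulators of mitochondrial biogenesis moved in both directions: of 11 tested, 5 were higher and 4 lower, beside 28.7% and 27.1% of all genes tested. Library size alone made 2 lower, beside 11.6% of all genes under that scaling. Nrf1, the factor whose core sequence has a match in the promoter of Ndufa6 above, had 42.7, 51.2 and 48.5 CPM in cerulein and 18.0, 14.4 and 12.6 CPM in saline (1.64 ± 0.18 SE, edgeR adjusted p = 6.11e-06). Pprc1, a coactivator of the PGC-1 family, had 193, 169 and 231 CPM in cerulein and 62.7, 28.6 and 45.5 CPM in saline (2.11 ± 0.25 SE). Ppara, a nuclear receptor for fatty acid oxidation genes, had 0.473, 0.936 and 0.758 CPM in cerulein and 11.5, 12.4 and 14.7 CPM in saline (-4.11 ± 0.33 SE, edgeR adjusted p = 4.59e-07). None of these 3 overlapped between groups. Other genes were named after their values were seen. The ETS factor gene Gabpa (0.57 ± 0.18 SE), the GABP partner gene Gabpb1 (0.80 ± 0.16 SE) and Yy1 (0.69 ± 0.14 SE) rose. The coactivators Ppargc1a (-1.05 ± 0.39 SE) and Ppargc1b (-2.29 ± 0.46 SE) fell. Gabpb2 (0.06 ± 0.21 SE) and the ERR gene Esrra (-0.37 ± 0.19 SE) were not called. Gabpa lies head to head with Atp5j and their rows partly overlap, so reads in the shared stretch may not be separable.

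Of 18 tested genes of mtDNA maintenance and transcription, 7 were lower and 2 higher, beside 27.1% and 28.7% of all genes tested. Library size alone gave 4 lower (22.2%) and 6 higher (33.3%), beside 11.6% of all genes lower and 41.6% higher under that scaling. Dguok, which makes deoxynucleotides inside mitochondria, fell by 1.83 (SE 0.25), Tk2, with a like role, by 1.25 (SE 0.20) and Tfb1m, which methylates the small mitochondrial rRNA, by 2.17 (SE 0.33). Tfam, which packages mtDNA and starts its transcription, had 17.0, 18.6 and 16.3 CPM in cerulein and 17.1, 16.2 and 17.7 CPM in saline (0.03 ± 0.17 SE, not called). The mitochondrial RNA polymerase gene Polrmt was not called either (0.03 ± 0.21 SE); both were named after their values were seen. Targets of the hypoxia factor HIF1 were divided, with 5 of 11 higher and 4 lower, beside 28.7% and 27.1% of all genes tested. Library size alone made 2 lower, beside 11.6% of all genes under that scaling. Slc2a1, a glucose transporter (2.82 ± 0.27 SE), and Ldha, lactate dehydrogenase (1.72 ± 0.16 SE), rose, whereas Pdk1, which inhibits pyruvate dehydrogenase, fell by 3.39 (SE 0.20, edgeR adjusted p = 3.19e-08).

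**Figure D5:**
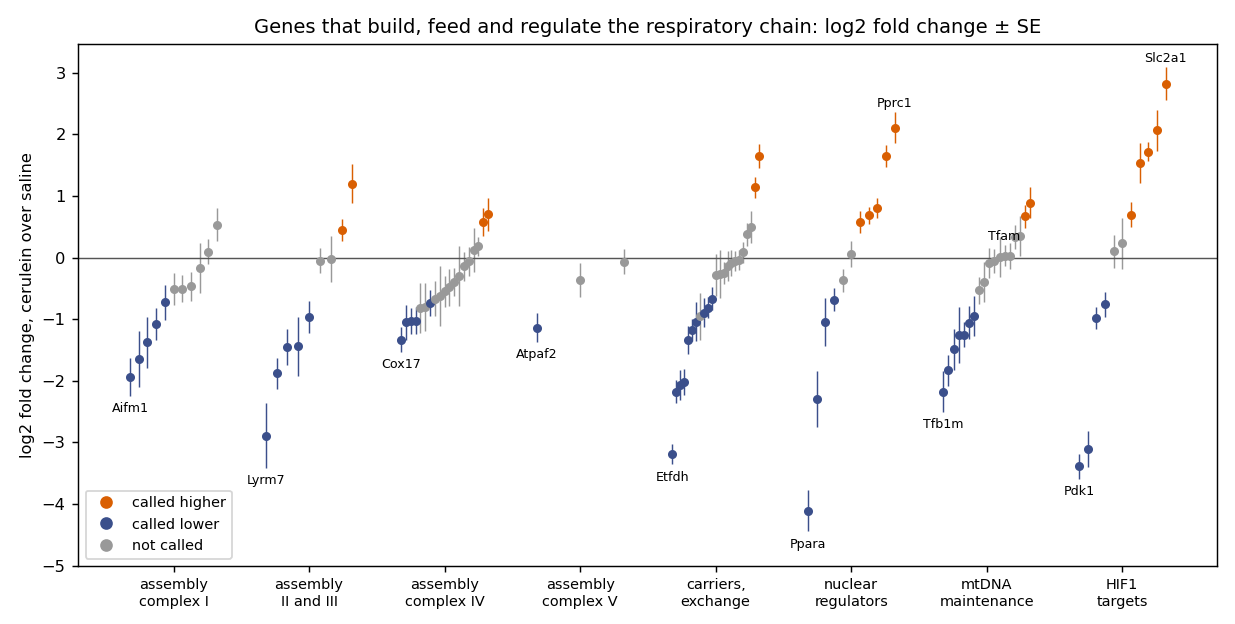
Log2 fold change, cerulein over saline with TMM scaling (y axis, points with bars ± SE), of the tested genes of 8 lists around the respiratory chain (x axis). With TMM scaling the assembly, carrier and mtDNA maintenance lists hold more genes called lower than higher, beside 27.1% of all genes lower and 28.7% higher. The lower shares for assembly of complexes IV (26.3%) and V (33.3%, 1 of 3 genes) lie near that of all genes. With library size alone the carrier and mtDNA maintenance lists and those for complexes I, IV and V hold fewer genes called lower than higher. Under that scaling 11.6% of all genes were lower and 41.6% higher. Nuclear regulators and HIF1 targets spread in both directions, from Ppara at -4.11 to Slc2a1 at 2.82.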

How the data were processed

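RNA sequencing of pancreas from 3 cerulein and 3 saline samples was analysed. TRIzol extraction and a stranded, poly(A)-selecting TruSeq kit were used, per the labels' protocols. The authors deposited raw counts of reads per gene. Trimmomatic, STAR and HTSeq on build mm10 are listed in the submitters' processing notes; versions, annotation release and strand setting were not given in the sources used here. The labels do not say that the 3 samples of a group came from separate animals, so p-values measure only the spread between these samples.

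Counts were used unchanged, with totals of 5335117 to 7610775 per library; no table column lacked a sample. Differential expression was fitted in R 4.3.3 with edgeR 4.0.16 (filterByExpr with a minimum count of 10 and total of 15, TMM factors, robust quasi-likelihood F test, Benjamini-Hochberg adjustment over all 12441 genes tested, calls under 0.05), which was tested on simulated data. In the simulated data only a small part of the genes changed, equally up and down, so the choice of scaling was not tested there. Standard errors derive from the F statistics. Shares and ratios per library were compared with two-sided exact permutation tests in scipy 1.17.1; means of log2 CPM used a pseudocount of 0.5. Alternatives were upper-quartile factors, library size alone, DESeq2 1.42.0, limma-voom 3.58.1, 2 other filters, a replicate block and leaving out each library. Exon lengths came from GENCODE, and positions and promoters from RefSeq GRCm38.p6. All 123 members had a position; none lay inside another gene, but 38 partly overlapped another row and may have lost reads.

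Named genes were the 4 markers Ndufs3, Ndufv2, ND1 and ND5, the 4 smallest p and the 2 fold changes nearest 0 in each complex (nuclear members averaging 4 or more in log2 CPM), all mtDNA subunits, members called higher, the most abundant per length, isoform pairs and up to 3 genes of each pathway list. Members and lists were chosen with earlier results of these data known.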

Additional observations from a re-analysis of the deposited data

How the results depend on the processing

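With library size alone in place of TMM factors, 1449 genes in all were lower, and of the members 25 nuclear subunits (14 of complex I, 1 of II, 2 of III, 4 of IV, 4 of V) and 2 mtDNA subunits were lower and 8 nuclear subunits higher; the medians were -0.38 (nuclear) and -0.21 (mtDNA). Under that scaling the log2 fold change was 0.0279 for Ndufv1, 0.0850 for Sdhd, 0.17 for Uqcrc1, 0.46 for Cox4i1, 0.43 for Atp5a1, 0.42 for Atp5b, 0.32 for ND3, 0.19 for Atpaf1 and 0.53 for Tmem70. The same scaling gave 2 higher and 1 lower complex I assembly factors, 3 lower for complexes II and III, 1 lower for IV, 1 higher and 0 lower for V, 7 higher and 5 lower carriers, 2 lower regulators, 6 higher and 4 lower mtDNA maintenance genes and 2 lower HIF1 targets. Upper-quartile factors gave 8 lower complex I assembly factors, 1 higher for complexes II and III, 0 higher and 10 lower for IV, an mtDNA median of -1.03 and Uqcrq at -0.0932. Of the 65 subunit genes called, 65 were shared with upper-quartile factors, 28 with library size alone, 56 with DESeq2 and 65 with limma-voom.

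Leaving out 1 library at a time, lower nuclear subunits numbered 40 to 52, lower mtDNA subunits 8 to 13, complex III 2 to 5 and complex V 5 to 9. The mtDNA median ranged from -1.02 to -0.71, the nuclear share difference from -0.0202 to 0.00224 percentage points and Uqcrq from -0.10 to 0.22. Summing per gene as mean log2 CPM turned the mtDNA to nuclear difference to 0.0551 and that of complex IV to 0.0152. With the replicate number as a block 53 nuclear and 12 mtDNA subunits were lower, and no named subunit gene changed its call. Deviations from the group means correlated between same-numbered libraries at r = 0.19, 0.22 and -0.15, against -0.29 to 0.09 between libraries of unlike number. Whether the numbers mark a pairing is therefore not settled. The cause of these shifts was not tested. Depth limits genes under a few CPM, and 9 of 80 nuclear subunit genes were too low to test.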
